A study of Mus musculus with 24 samples.

Results

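Otx2, Msx1, Msx2, Lmx1a and Prdm16 encode transcription factors of the choroid plexus and of the dorsal midline from which it forms, and their mRNAs were followed in the hippocampus of neonatal mice. They were chosen by name, with earlier results of these data known. Every non-control probe of the mRNA arrays whose gene name is one of these 5 was taken, out of 36163 gene names. Each gene was measured by 1 probe. RNA from the pooled bilateral hippocampi of wild-type C57BL/6 pups, labelled male, was hybridised to 15 single-colour Agilent arrays, 5 per group, each from a different mouse. Control pups (Con) were untreated and stayed with the dam, whereas their littermates in the treated groups received morphine at 2 mg/kg (MS2) or 5 mg/kg (MS5) under the skin from P5, with daily isolation from the dam in a warmer and nitrogen-then-oxygen exposures to mimic apnea. All were killed on P9. Both treated groups had the stress protocol, so MS5 against MS2 compared doses, while each contrast with Con spanned morphine and stress together. The same 5 control arrays entered both contrasts with Con.

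The choroid plexus is the folded epithelium inside the brain ventricles that secretes cerebrospinal fluid, and that of the lateral ventricle is attached along the edge of the hippocampus. It arises from the dorsal midline of the neural tube under BMP and WNT signals. OTX2 is a bicoid-class homeodomain factor needed for the choroid plexus to form and kept on in the mature epithelium. LMX1A is a LIM-homeodomain factor of the roof plate and cortical hem, MSX1 and MSX2 are homeodomain repressors induced by BMP at the dorsal midline, and PRDM16 is a zinc-finger chromatin regulator of neural progenitors, ependyma and choroid plexus.

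The first 30 of the 60 bases of each probe are shown to state which stretch of each transcript was read, with the mm9 position of the whole probe as given in the scanner files. Their place within exons was not analysed here.
Otx2, chr14:49277855-49277914, minus strand: tttcagggctgtgtggattgtgcgactgat
Lmx1a, chr1:169778804-169778863, plus strand: caaacagagatccttaattctactctctaa
Msx1, chr5:38212305-38212364, minus strand: acacttcctcctggttgtcgcttcctaaac
Prdm16, chr4:153690254-153690313, minus strand: ctggataccaaatgtaatctttccgatgct
Msx2, chr13:53562318-53562377, minus strand: cctgtccatctcttcccccagtatattttt
All 5 probes were well above background on 15 of 15 arrays, none was saturated, and none of their spots carried an outlier call.

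The RefSeq sequences (GRCm38.p6) of the 250 bases before the transcription start were searched on both strands for TAATCC, the core that OTX2 binds, and for TAATTA and CAATTA, cores of the Msx and LIM-homeodomain type. All 5 genes matched by symbol, Otx2 with 4 start sites and the others with 1 each. The windows of 3 start sites are printed, with matches in capitals: the outermost Otx2 window and that of Msx1, the genes with the lowest MS5 means relative to control, and that of Msx2, the close relative of Msx1 whose level hardly varied.
Otx2, chr14:48667645-48667894, minus strand: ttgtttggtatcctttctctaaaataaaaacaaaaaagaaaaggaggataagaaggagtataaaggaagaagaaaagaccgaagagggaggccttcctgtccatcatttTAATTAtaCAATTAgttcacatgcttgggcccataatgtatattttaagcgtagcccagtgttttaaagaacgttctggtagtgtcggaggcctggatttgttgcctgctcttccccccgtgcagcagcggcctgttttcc
Msx1, chr5:37824586-37824835, minus strand: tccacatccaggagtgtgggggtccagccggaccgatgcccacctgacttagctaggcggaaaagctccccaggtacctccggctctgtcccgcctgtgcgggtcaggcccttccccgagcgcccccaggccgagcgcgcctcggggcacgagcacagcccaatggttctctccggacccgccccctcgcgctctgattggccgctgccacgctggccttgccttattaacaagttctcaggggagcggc
Msx2, chr13:53472781-53473030, minus strand: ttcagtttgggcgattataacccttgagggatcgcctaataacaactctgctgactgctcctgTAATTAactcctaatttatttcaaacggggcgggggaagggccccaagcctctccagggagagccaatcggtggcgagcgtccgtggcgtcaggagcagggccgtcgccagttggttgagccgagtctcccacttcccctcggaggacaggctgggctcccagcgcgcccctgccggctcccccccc
The Otx2 window held 1 TAATTA and 1 CAATTA, placed 141 and 133 bases before the start, the Msx2 window held 1 TAATTA, 187 bases before it, and the Msx1 window held none. Of the other windows, another Otx2 start had 3 TAATTA and 1 TAATCC, a further Otx2 start had 1 CAATTA, and those of Lmx1a and Prdm16 had no match. Among 32851 windows of this length TAATCC was present in 6.25%, TAATTA in 4.84% and CAATTA in 7.17%. The Msx1 window was 68% GC and the Otx2 window 42% GC, against a median of 52.4% over all windows.

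Of the 15 arrays, 3 stood apart on Xist or on the means of marker lists, which were chosen with earlier results of these data known. MS5 replicate 9 carried Xist, the RNA of the inactive X chromosome, at 11.34 (log2) against 5.89 to 6.08 on the other 14 arrays, although all pups were labelled male. MS5 replicates 9 and 14 had a mean of 9.61 and 8.67 over 16 choroid plexus epithelium genes, against 11.19 to 12.08 in Con, 11.2 to 11.84 in MS2 and 10.85 to 11.6 in the other 3 MS5 arrays. MS2 replicate 4 had a mean of 9.86 over 11 hypothalamus and thalamus genes and 10.57 over 8 hippocampal neuron genes, against 7.18 to 8.7 and 11.94 to 12.42 on the other 14 arrays. Median spot signal was 58.2 on MS2 replicate 5 and 121 to 154 elsewhere, and each group was spread over 2 slides.

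Otx2 was the most variable of these mRNAs, with a span of 3.95 (log2) over 15 arrays. Con replicates 15 to 19 read 11.36, 12.60, 12.43, 11.56 and 11.99. MS2 replicates 1, 3, 4, 5 and 7 read 12.07, 12.18, 13.18, 11.48 and 11.26, and MS5 replicates 8, 9, 12, 13 and 14 read 11.68, 9.24, 11.91, 11.40 and 9.43. MS5 replicates 9 and 14 lay below every control while the other 3 lay among the controls, and MS2 replicate 4 was above every other array. The means were 11.99 ± 0.54 in Con, 12.04 ± 0.75 in MS2 and 10.73 ± 1.29 in MS5 (SD, n = 5). Otx2 was thus 2.39-fold lower in MS5 than in Con, a log2 difference of -1.26 with a standard error of 0.53 and a 95% interval from -2.38 to -0.13. It passed the study's threshold of over 1.5-fold with an unadjusted p under 0.05 (limma p = 0.0309), whereas its Benjamini-Hochberg adjusted p over all 55681 probes was 1 and the two-sided exact permutation p over arrays was 0.0952. Against MS2 it was lower by 1.31 (log2, limma p = 0.0258, exact permutation p = 0.111, adjusted p = 1), and MS2 and Con differed by 0.05 with an interval from -1.08 to 1.17.

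The Otx2 difference rested on MS5 replicates 9 and 14. Without both it was -0.33 from Con (interval -1.17 to 0.52) and -0.37 from MS2 (interval -1.22 to 0.47). Leaving out Con replicate 16, Con replicate 17, MS5 replicate 9 or MS5 replicate 14 alone ended the call against Con, with differences of -1.10, -1.15, -0.88 and -0.93. Within slide 1 the MS5 minus Con difference was -0.24 and within slide 2, which held MS5 replicates 9, 12 and 14, it was -2.11.

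Lmx1a followed the order of Otx2 closely. Con replicates 15 to 19 read 8.23, 8.79, 8.64, 8.21 and 8.45, and the MS2 arrays, in the order above, 8.68, 8.80, 9.14, 8.15 and 8.30. The MS5 arrays read 8.25, 7.06, 8.85, 8.25 and 6.53. Again MS5 replicates 9 and 14 were the lowest of all arrays, MS2 replicate 4 was the highest, and the other 3 MS5 arrays lay above the lowest control. Means were 8.46 ± 0.25, 8.61 ± 0.40 and 7.79 ± 0.96 in Con, MS2 and MS5 (SD, n = 5). In MS5 Lmx1a was lower than in MS2 by 0.83 (log2, 1.77-fold, limma p = 0.0348, exact permutation p = 0.143, adjusted p = 1), which passed the unadjusted threshold. The difference from Con was -0.68 with an interval from -1.43 to 0.08 and did not pass. Without MS5 replicates 9 and 14 the differences were -0.16 from MS2 and -0.01 from Con, and leaving out MS2 replicate 1, 3 or 4 or MS5 replicate 9 or 14 alone also ended the call against MS2, at -0.81, -0.78, -0.69, -0.64 and -0.51. Leaving out MS5 replicate 12 brought the contrast with Con past the threshold, at -0.94.

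Msx1 was lower in MS5 than in Con whichever single array was left out. Con replicates 15 to 19 read 10.33, 11.25, 11.22, 10.58 and 10.69, and the MS2 arrays 10.98, 10.80, 10.14, 10.62 and 10.36. The MS5 arrays read 10.51, 9.63, 10.65, 9.99 and 8.93. MS5 replicates 9, 13 and 14 lay below every Con and every MS2 array, and the other 2 overlapped both groups. The means were 10.81 ± 0.40 in Con, 10.58 ± 0.34 in MS2 and 9.94 ± 0.70 in MS5 (SD, n = 5). The MS5 mean was 1.83-fold below Con, a log2 difference of -0.87 with a standard error of 0.29 and an interval from -1.49 to -0.25 (limma p = 0.00909, exact permutation p = 0.0476, adjusted p = 1). This difference passed the unadjusted threshold whichever 1 of the 15 arrays was left out, between -1.05 and -0.62, but not when MS5 replicates 9 and 14 were both left out (-0.43, interval -0.96 to 0.09). Within slides it was -0.46 and -1.23. Against MS2 the difference was -0.64 (limma p = 0.0448, exact permutation p = 0.103), a call lost without any 1 of 8 arrays, namely Con replicate 18 or 19, MS2 replicate 1, 3 or 5, and MS5 replicate 9, 13 or 14. The smallest of these differences was -0.39, without MS5 replicate 14. MS2 differed from Con by -0.24, with an interval from -0.86 to 0.39.

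Prdm16 was lower in MS5 by a smaller margin, and its lowest array was not in MS5. Con replicates 15 to 19 read 9.43, 10.24, 10.39, 9.66 and 10.47, the MS2 arrays 9.86, 9.71, 8.80, 9.86 and 9.61, and the MS5 arrays 9.39, 9.18, 9.92, 9.51 and 9.18. MS2 replicate 4 read the lowest, and 3 MS5 arrays lay just below the lowest control. Means were 10.04 ± 0.46 in Con, 9.57 ± 0.44 in MS2 and 9.44 ± 0.30 in MS5 (SD, n = 5). MS5 was 1.52-fold below Con (log2 difference -0.60, interval -1.11 to -0.10, limma p = 0.023, exact permutation p = 0.0635, adjusted p = 1), which barely cleared the fold limit. MS2 minus Con was -0.47 with an interval from -0.97 to 0.04, which did not pass, and MS5 and MS2 differed by -0.13 with an interval from -0.64 to 0.37. Both depended on MS2 replicate 4, without which MS2 minus Con was -0.28 and MS5 minus MS2 was -0.32. The MS5 call was lost without Con replicate 16, 17 or 19 or MS5 replicate 9 or 14, at differences of -0.55, -0.51, -0.49, -0.54 and -0.54, and was -0.43 without both MS5 replicates. Leaving out Con replicate 15 brought the MS2 contrast past the threshold, at -0.62.

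Msx2 hardly varied, with a span of 0.52 (log2) over the 15 arrays. Con replicates 15 to 19 read 8.44, 8.59, 8.49, 8.55 and 8.36, the MS2 arrays 8.50, 8.51, 8.07, 8.30 and 8.42, and the MS5 arrays 8.21, 8.53, 8.46, 8.34 and 8.32. The groups overlapped, and MS5 replicate 9, low for the other 4 genes, was among the higher Msx2 readings. The MS5 minus Con difference was -0.11 (interval -0.29 to 0.07), MS2 minus Con was -0.13 (interval -0.31 to 0.05) and MS5 minus MS2 was 0.01 (interval -0.16 to 0.19). These intervals lay inside a 1.5-fold change in either direction.

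**Figure D1:**
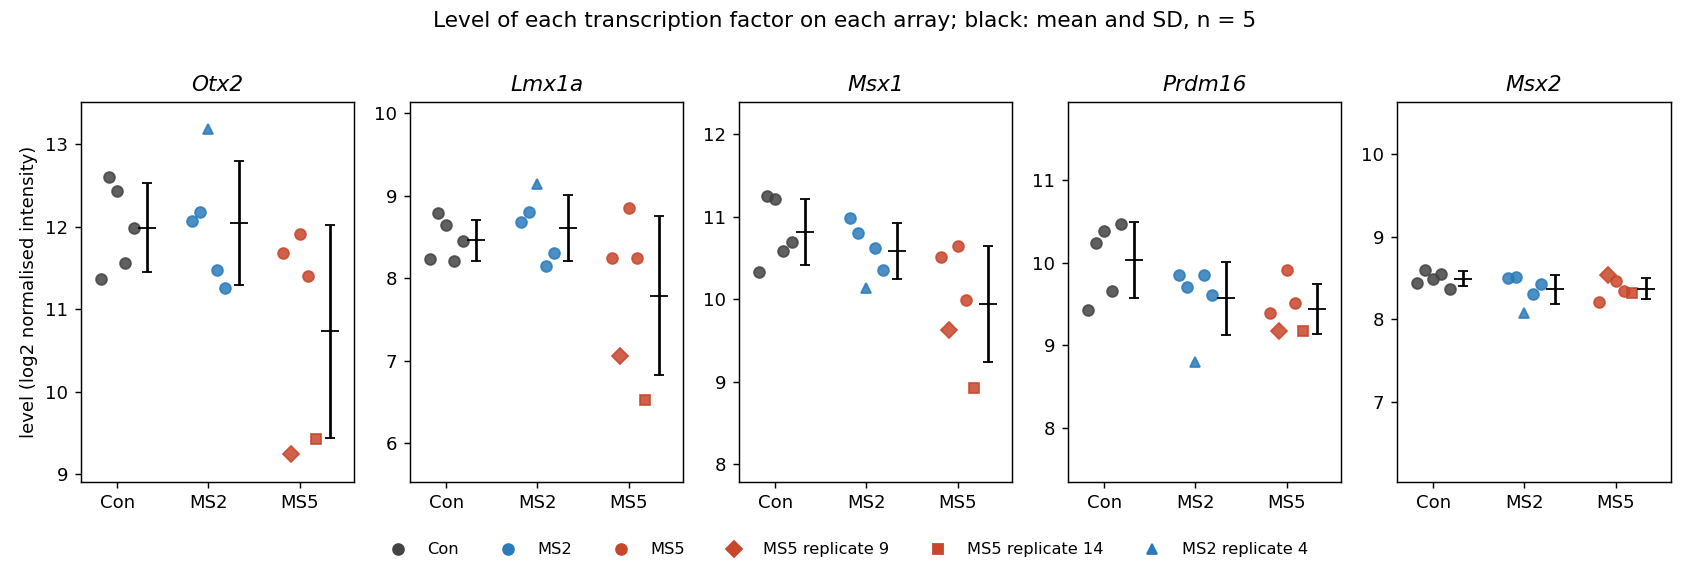
Level of each gene (log2 normalised intensity, vertical axis) on each of 5 Con, 5 MS2 and 5 MS5 arrays, with the mean and SD in black; every panel spans the same number of log2 units. Otx2 and Lmx1a drop on MS5 replicates 9 (9.24 and 7.06) and 14 (9.43 and 6.53) and peak on MS2 replicate 4, whereas Msx2 stays between 8.07 and 8.59.

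Over the 5 genes, 3 passed the unadjusted threshold in MS5 against Con, all lower (Otx2, Msx1 and Prdm16), where 0.183% of all probes were called lower. The study had already listed these 3 as lower in MS5 from the same arrays, and the members were chosen with such results known. This count therefore restates known calls. Against MS2, with the same 5 MS5 arrays, 3 were lower (Otx2 and Msx1 again, and Lmx1a), beside 0.111% of all probes. None passed in MS2 against Con, where 0.0233% of all probes were called in either direction. By the adjusted p of limma 0 of the 5 passed in any contrast, and 0 of all probes did. At an unadjusted p under 0.05 alone the members counted 3, 3 and 0 in MS5 against Con, MS5 against MS2 and MS2 against Con, beside 3.9%, 3.97% and 4.17% of all probes. For no gene were 2 groups fully separated, and full separation was found for 0.828% of all probes in MS5 against Con, 0.621% in MS5 against MS2 and 0.702% in MS2 against Con. The median difference of the 5 genes in MS5 against Con was -0.68, with 0 as the median of all probes.

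**Figure D2:**
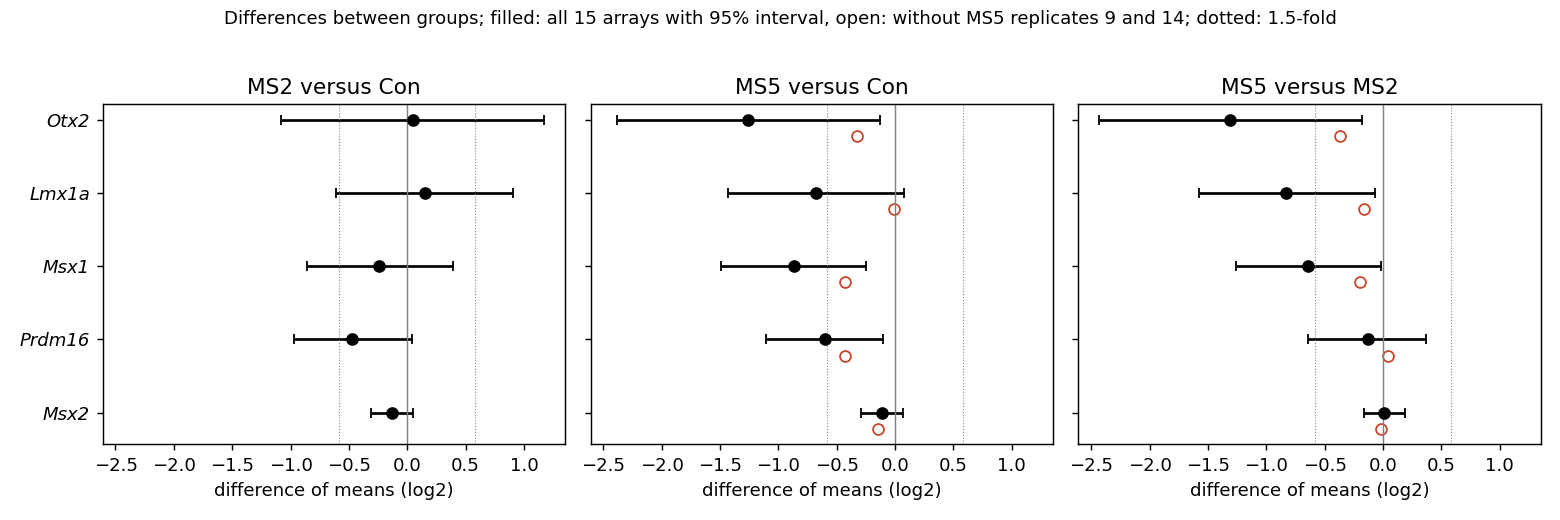
Difference of group means (log2, horizontal axis) for each gene in the 3 contrasts, filled with the 95% interval for all 15 arrays and open without MS5 replicates 9 and 14; dotted lines mark 1.5-fold. The open points for Otx2 (-0.33 and -0.37) and Lmx1a (-0.01 and -0.16) move close to 0, and those for Msx1 and Prdm16 against Con stop at -0.43.

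The levels were then set beside the choroid plexus epithelium of the same tissue pieces, measured as the mean of 16 genes such as Ttr (transthyretin), Folr1 (a folate receptor), Aqp1 (a water channel) and Kl (Klotho). In MS5 against Con 14 of the 16 were lower past the unadjusted threshold, with Ttr at -1.54 and Prlr at -0.03 not passing, and the median was -1.26. Of all 36163 gene names 79 were lower past it. The study had already listed many of these epithelium genes as lower at the higher dose, from the same arrays. The list was chosen with such results known, so its count in large part restates known calls. In bulk tissue fewer cells of a type and less RNA per cell cannot be told apart. Of these 16 genes, 15 were below every control on MS5 replicate 9, 15 on replicate 14, 16 on replicate 13, 3 on replicate 8 and 0 on replicate 12. Of the 5 transcription factors, 4, 5, 2, 2 and 0 were below every control on the same arrays, beside 16.9%, 18.3%, 16.3%, 19.9% and 18.6% of all probes. On replicates 13 and 8 one of the 2 was Msx2, which was under the lowest control by little (8.34 and 8.21 against 8.36). Ttr itself was 15.93 on MS5 replicate 9 and 12.84 on replicate 14, against at least 17.66 in Con.

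Msx1 ran almost parallel to the epithelium genes. Over 15 arrays its Pearson r with the list mean was 0.96 and its Spearman rho 0.98 (permutation p = 1e-05 for each, the smallest that 100000 resamples allow, Benjamini-Hochberg adjusted p = 5e-05 over the 5 genes). Without the 2 arrays farthest from the median list mean, MS5 replicates 14 and 9, r was 0.97, and within the slides it was 0.98 and 0.97. The permutations shuffled all 15 arrays without regard to group, here and for the genes below. Members and list were chosen with earlier results of these data known, and these p do not account for that choice. With group means removed, r was 0.94 for Msx1. Msx1 changed by 0.63 (log2) for each unit of the list mean.

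Otx2 and Lmx1a had r of 0.87 and 0.91 with the list mean and rho of 0.77 and 0.64 (adjusted permutation p for r of 0.000867 and 6e-04). Without MS5 replicates 14 and 9 r fell to 0.50 and 0.46, so in all arrays the relation rested in large part on these 2. The array that left the line was MS2 replicate 4. Without it r was 0.96 for Otx2 and 0.97 for Lmx1a over 14 arrays, and without all 3 arrays it was 0.94 and 0.78 over 12, a choice made after seeing the values. Within slides r was 0.92 and 0.88 for Otx2 and 0.83 and 0.92 for Lmx1a. With group means removed it was 0.81 and 0.90. Within Con, MS2 and MS5 alone, r was 0.99, -0.02 and 0.94 for Otx2 and 0.95, 0.15 and 0.98 for Lmx1a.

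Prdm16 had r of 0.63 and rho of 0.82 (adjusted permutation p of 0.0118 and 0.000675), with r of 0.72 without the same 2 arrays. Msx2 had r of 0.21 and rho of 0.49 (adjusted permutation p of 0.445 and 0.0674), with r of 0.59 without them. With group means removed, r was 0.56 for Prdm16 and 0.10 for Msx2. For Msx2 the slope was 0.03 for each unit of the list mean, and for Otx2 it was 1.

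**Figure D3:**
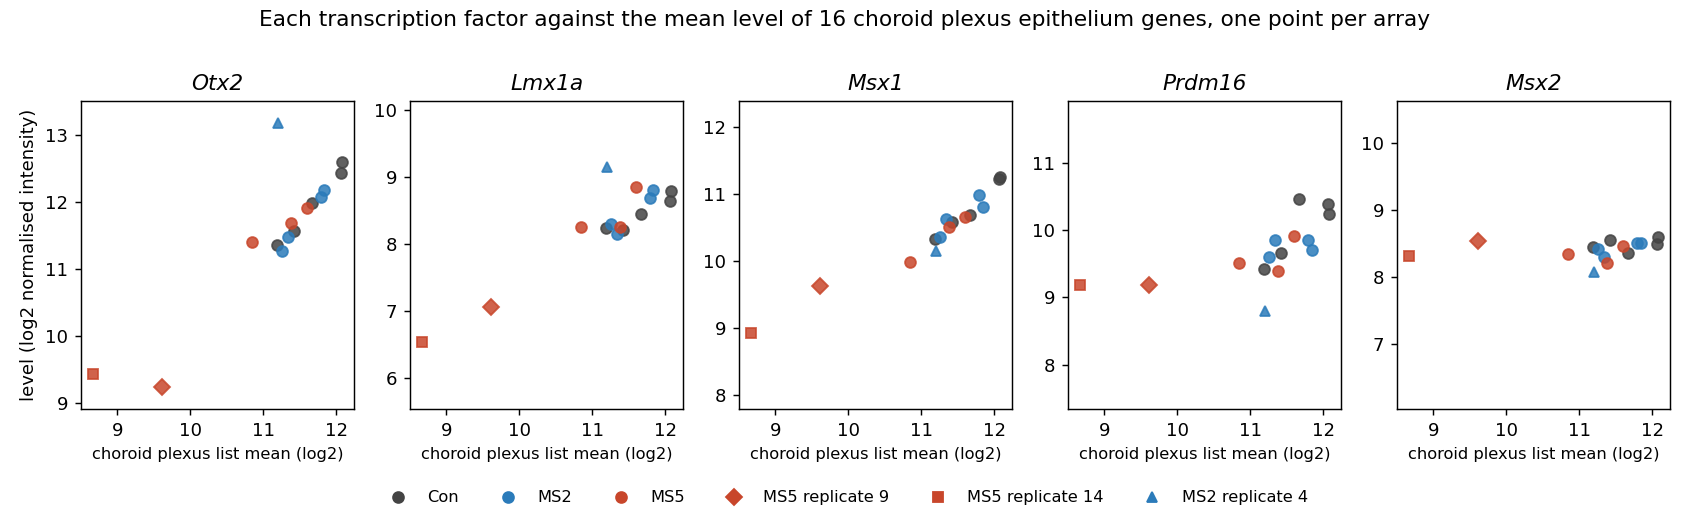
Level of each gene (log2, vertical axis) against the mean level of 16 choroid plexus epithelium genes (log2, horizontal axis), 1 point per array, coloured by group. Msx1 follows the list over its whole range (r = 0.96) and Msx2 is nearly level (r = 0.21). Otx2 and Lmx1a follow it more loosely, with MS2 replicate 4 standing well above.

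When each gene was expressed relative to the list mean of its own array, the MS5 minus Con difference was 0.01 for Otx2, 0.39 for Msx1, 0.59 for Lmx1a, 0.66 for Prdm16 and 1.15 for Msx2. On that scale the median of all probes moved by 1.263. On it Otx2 stood near 0, the value of the list itself, Msx2 stood close to the median of all probes, and the other 3 lay between them. The Otx2 mean hid opposite readings on that scale, -0.37 on MS5 replicate 9 and 0.76 on replicate 14, against 0.14 to 0.52 in Con.

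MS2 replicate 4 separated the genes into 2 sets. It held the highest Otx2 (13.18) and Lmx1a (9.14) of all arrays together with the lowest Prdm16 (8.80) and Msx2 (8.07) of all and the lowest Msx1 (10.14) of its group, at a choroid list mean of 11.2. Otx2 and Lmx1a are also active in the diencephalon and midbrain. The hypothalamus and thalamus list stood at 9.86 on this array against 7.27 to 7.8 in the other MS2 arrays, and the hippocampal neuron list at 10.57 against 12.24 to 12.4. The part of these tissues in the Otx2 and Lmx1a readings was not tested. Without this array Otx2 differed from Con by -0.24 in MS2, and MS5 differed from MS2 by -1.02 for Otx2 and by -0.69 for Lmx1a, both short of the threshold. The hypothalamus and thalamus list was also higher on MS5 replicates 8, 12 and 14, at 8.7, 8.38 and 8.64 against 7.18 to 7.76 in Con, of which replicates 8 and 12 were among the Otx2-rich and replicate 14 among the Otx2-poor MS5 arrays.

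Otx2 shared its pattern with an RNA of its own locus. The gene name whose representative probe was most like Otx2 over the 15 arrays, after group means were removed, was a long intergenic RNA (lincRNA) on the opposite strand of the same locus, with r of 0.99 among 28775 names. Its 2 probes nearest the far end are shown because they carried the same group difference as Otx2 (mm9).
lincRNA probe, chr14:49412903-49412962, plus strand: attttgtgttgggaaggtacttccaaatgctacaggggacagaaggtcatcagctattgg
lincRNA probe, chr14:49412964-49413023, plus strand: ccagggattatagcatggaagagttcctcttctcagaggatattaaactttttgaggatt
They lay next to each other, 135048 and 135109 bases from the Otx2 probe, so they were not separate readings of the locus. The first read 8.57 ± 0.39 in Con, 8.59 ± 0.53 in MS2 and 7.52 ± 0.92 in MS5 (SD, n = 5), with 6.61 and 6.41 on MS5 replicates 9 and 14, from 8.05 to 8.30 on the other MS5 arrays and 9.44 on MS2 replicate 4. The low and high arrays were thus those of Otx2. Its MS5 minus Con difference was -1.05 and that of the second probe was -1.01, each past the unadjusted threshold with a limma adjusted p of 1, and without MS5 replicates 9 and 14 they were -0.38 and -0.37.

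All 13 probes within 150000 bases of the Otx2 probe were then read, a window set after seeing this likeness. Otx2 and these 2 lincRNA probes passed the unadjusted threshold, and the other 10 did not. The third probe of the lincRNA, 11156 bases from Otx2 and well above background on 11 arrays, had r of 0.87 with Otx2 and a difference of -0.24. Otx2os1, the transcript annotated opposite to Otx2, had r of 0.82. It was at -0.35 against Con (interval -0.71 to 0.01, limma p = 0.0566, exact permutation p = 0.0159). Against MS2 it was at -0.48 (limma p = 0.0127, exact permutation p = 0.0794). Both were below the fold limit, and without MS5 replicates 9 and 14 the difference from Con was -0.14. The Otx2os1 probe lay on the plus strand inside the span of the lincRNA, and whether both belong to the same RNA was not tested. A minus-strand probe without a gene symbol, 7097 bases from the Otx2 probe, had r of 0.73 and -0.16 against Con. Whether it reads an Otx2 transcript was not tested. This minus-strand probe read 7.27 in Con and Otx2os1 read 6.79, against 11.99 for the Otx2 probe. Their differences were thus read on much dimmer probes. The 5 probes in between, of Gm3552 and of another lincRNA region, had r from -0.34 to 0.23 and differences from -0.08 to 0.07, but 2 of them were well above background on 0 and 1 arrays and so carried little signal. On the other side of Otx2, 1 probe had r of 0.50, and 1 with r of 0.01 was well above background on 0 arrays.

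Lmx1a was among the 5 names most like Otx2 (r = 0.94), after Tjp3, a tight junction protein (r = 0.95), and before Cmtm8 and Cpt1a (r = 0.93 each). For Lmx1a the closest were the same lincRNA (r = 0.95), Otx2 (r = 0.94), a lincRNA of chromosome 8, 4931429I11Rik and Cldn2, the claudin of the choroid plexus (r = 0.92 each). For Msx1 they were Abca4, a lipid transporter, and Car14, a carbonic anhydrase (r = 0.98 each), then Tmem72, Lbp and Slc28a3 (r = 0.97 each). Prdm16 had Arhgap25 (r = 0.95), an unnamed probe, Tor3a, Gcnt1 and Kif9, and Msx2 had Trim2 and Cyp1b1 (r = 0.93 each) with 3 probes without a gene symbol. These r are descriptions over 15 arrays that share their tissue pieces, with group means removed.

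Of the 16 epithelium genes, 15 exceeded the 99th percentile of all names in likeness to Msx1, 15 to Lmx1a, 11 to Otx2 and 0 to Prdm16 or Msx2. The median r with these 16 genes was 0.93 for Msx1, 0.85 for Lmx1a, 0.76 for Otx2, 0.59 for Prdm16 and 0.09 for Msx2. Among the 5 genes themselves Otx2 and Lmx1a were the most alike pair (r = 0.94), Msx1 had 0.75 with Lmx1a, 0.69 with Prdm16 and 0.67 with Otx2, and Msx2 had -0.32 with Otx2.

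**Figure D4:**
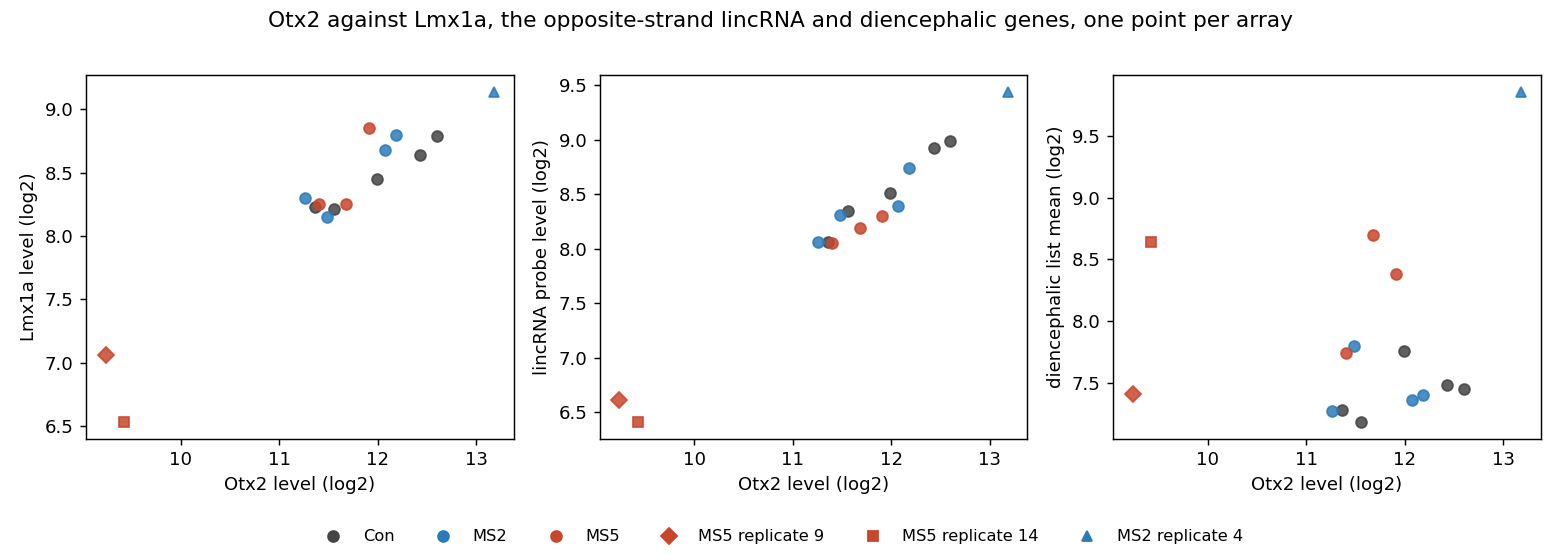
Otx2 (log2, horizontal axes) against Lmx1a, a probe of the opposite-strand lincRNA and the mean of 11 hypothalamus and thalamus genes (log2, vertical axes), 1 point per array. Lmx1a and the lincRNA rise with Otx2 (r = 0.94 and 0.99 with group means removed), and MS2 replicate 4 is highest in all 3 panels while MS5 replicate 14 combines low Otx2 (9.43) with a diencephalic mean of 8.64.

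No paralog and no upstream signal of the 5 genes passed the threshold. Of 8 paralogs of the 5 genes, 0 passed the threshold in MS5 against Con at a median of -0.06. Otx1, Lmx1b and Mecom, the nearest relatives of Otx2, Lmx1a and Prdm16, were at -0.03, 0.04 and -0.04. Msx3, the relative of Msx1 and Msx2, was at -0.21, and the 8 paralogs ran from -0.26 to 0.13. By the unadjusted p limit alone 2 of the 8 were lower, Msx3 among them, both short of the fold limit. Of 20 dorsal midline BMP and WNT signals and effectors 0 passed, at a median of -0.08. Among them Bmp4 and Bmp7, ligands that pattern this midline, were at 0.02 and -0.04, Id1 and Id3, target genes of BMP receptors, were at -0.22 each, and Rspo2, an enhancer of WNT signalling, was the farthest from 0 at -0.26.

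Of 16 other transcription factors of the choroid plexus or roof plate 0 passed, with Meis1 the farthest from 0 at 0.84. Among 8 factors of the multiciliated cell programme 1 passed. It was Gmnc, listed under its older name Gm606, which starts that programme in ependyma and choroid plexus, and it was lower in MS5 by 0.77 than in Con and by 0.69 than in MS2 (limma adjusted p = 1 for each). Foxj1, the master regulator of motile cilia, was at -0.39, short of the threshold. Mcidas, of the same list, was read only by a probe that starts in a simple repeat, and its value is uncertain. Over all gene names 79 were lower and 22 higher in MS5 against Con, of 36163.

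Among markers of neighbouring tissues few passed the threshold. Of 7 ependymal genes 1 passed, lower in MS5 (Mia, listed as Mia1, at -0.76), although all 7 had differences below 0, with a median of -0.39. The mean of the 7 was 10.61 and 10.95 on MS5 replicates 9 and 14 and 10.84 on MS2 replicate 4, against 11.28 to 12.26 in Con, and its part in the results above was not tested. Of 7 meningeal genes 0 passed (Dcn the farthest from 0, at -0.50), although all 7 were likewise below 0, with a median of -0.22. Of 8 hippocampal neuron genes 0 passed (Fibcd1, at -0.38), and 6 were below 0. Over all gene names 18280 of 36163 were below 0 in MS5 against Con. Of 11 hypothalamus and thalamus genes 3 were higher, Avp at 2.53, Trh at 1.89 and Oxt at 1.79, which encode neuropeptides of the hypothalamus. The lists overlap in Foxj1, which is in 3 of them, and Tcf7l2, which is in 2.

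For 8 animals the labels gave the same group and number on a miR array, where miR-204 and miR-448, which the choroid plexus expresses highly, were read on probe sets that name no arm. The study listed Otx2 and Prdm16 as predicted targets of miR-448-5p, a link that was not tested here. In Con replicates 16, 17 and 18 miR-204 was 6.99, 7.06 and 7.53 (log2) and miR-448 was 7.16, 6.76 and 7.61. In MS2 replicates 3 and 4 miR-204 was 8.3 and 6.84 and miR-448 was 7.52 and 6.92. Prdm16 read 9.18, 9.92 and 9.18 on MS5 replicates 9, 12 and 14. MS5 replicate 14 was low in both miRs (5.37 and 4.71) and in Otx2 (9.43). MS5 replicate 12 was low in both miRs (5.23 and 4.81) with Otx2 at 11.91 and a choroid list mean of 11.6, whereas MS5 replicate 9 had miRs of 7.31 and 7.25 with Otx2 at 9.24 and a list mean of 9.61. Between replicates 9 and 12 the order of the miRs was thus opposite to that of Otx2 and the epithelium genes, and whether the numbers name the same animals on both array types was not tested.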

How the data were processed

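Total RNA from 15 hippocampal samples was hybridised to 1-colour Agilent arrays. Spot intensity values from Feature Extraction 10.7.1.1 were deposited without scaling between arrays, together with log2 values made by the authors with normexp background adjustment and quantile normalisation. Repeating this with an offset of 50 on 62976 spots, using the first spot of each probe, gave the deposited log2 table within 4.999e-09. That table was used. For miRs, the deposited log2 values had been quantile normalised by probe and summarised by median polish.

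Groups were compared in 1 fit with limma 3.58.1 in R 4.3.3 over 55681 non-control probes, with Benjamini-Hochberg adjustment over all of them. The threshold was that of the methods, over 1.5-fold with an unadjusted p under 0.05. Exact permutation tests used all 252 assignments of 5 against 5 arrays, two-sided, with 0.00794 as the smallest p. Correlations used 100000 permutations. Steps were tested on simulated data. The number of arrays limits the precision.

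Genes named were the members, list genes past the threshold or, in lists without one, the gene farthest from 0 in MS5 against Con, and the 5 names most like each member among probes well above background on at least 8 arrays. Each list gene was represented by its probe with the highest mean. Bmp4, Bmp7, Id1, Id3, Foxj1, Otx1, Msx3, Lmx1b, Mecom, Mcidas, Ttr, Prlr, Xist and the other probes at the Otx2 locus were named after their values were seen. Members and lists were chosen with earlier results of these data known. Sequences came from the scanner files (mm9) and RefSeq (GRCm38.p6), read with Python 3.11.15. Alternatives were another normalisation, an offset of 0, averaged spots, array weights, slide as a block, 2 groups only, a filter on dim probes, levels relative to the choroid list, and leaving out each array. Leaving out MS5 replicates 9 and 14 together, MS2 replicate 4 with them, or outlier spots was added after seeing the data. One gene that the naming rule selects is not reported here. PCR data were not used here.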

Additional observations from a re-analysis of the deposited data

Results flagged for a closer look

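Prdm16 on MS2 replicate 4 read 8.8 (log2), far below the next lowest array of its group at 9.61, and this gap was 0.768 of the group's range. It was the single such reading among 15 groups of 5 arrays, of which chance alone would mark about 1 in 20.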

How the results depend on the processing

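Across other normalisation (75th percentile), offset 0, averaged spots, a dim-probe filter and outlier spots left out, the differences of the 5 genes kept their direction and their side of the threshold, except Msx1 in MS5 against MS2 at the 75th percentile (-0.68, no longer past it). Msx1 in that contrast was also lost with the slide as a block (-0.60) and, with only the 2 groups compared, both Msx1 (-0.64) and Lmx1a (-0.83) fell short, leaving 1 gene past the threshold there. With array weights Lmx1a in MS5 against Con passed (-0.83), while Otx2 in MS2 against Con (-0.12) and Msx2 in MS5 against MS2 (-0.08) changed sign. Without MS5 replicates 9 and 14 no gene passed, 0 in each MS5 contrast: against Con Otx2 was -0.33, Msx1 -0.43 and Prdm16 -0.43, and against MS2 Otx2 was -0.37, Msx1 -0.20, Lmx1a -0.16, Msx2 -0.02 and Prdm16 0.04. Relative to the choroid list, where all probes shifted by 1.263 and 1.066, MS5 minus Con was 0.01 for Otx2, 0.39 for Msx1, 1.15 for Msx2, 0.59 for Lmx1a and 0.66 for Prdm16, MS5 minus MS2 was -0.24, 0.43, 1.08, 0.24 and 0.93, with 1 gene (Msx2, higher) past in each beside 98.5% and 86.3% of all probes, which this scale moves alike, and Msx2 in MS2 against Con was 0.07. The cause of these changes was not tested.

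Each array was left out in turn. In MS2 against Con differences ran from -0.24 to 0.24 for Otx2, -0.36 to -0.13 for Msx1, -0.17 to -0.05 for Msx2, 0.02 to 0.27 for Lmx1a, -0.62 to -0.28 for Prdm16, with 0 to 1 genes past the threshold. In MS5 against Con differences ran from -1.55 to -0.88 for Otx2, -1.05 to -0.62 for Msx1, -0.15 to -0.07 for Msx2, -0.94 to -0.36 for Lmx1a, -0.75 to -0.49 for Prdm16, with 1 to 4 genes past the threshold. In MS5 against MS2 differences ran from -1.60 to -0.93 for Otx2, -0.81 to -0.39 for Msx1, -0.06 to 0.06 for Msx2, -1.09 to -0.51 for Lmx1a, -0.32 to -0.06 for Prdm16, with 0 to 3 genes past the threshold.

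No paired analysis was possible because the groups compared share no replicate numbers and the sample labels used here give no litter. Litter was therefore not in the fit, although treated and control pups were littermates. Over all probes, the count past the threshold was 13, 127 and 72 in MS2 against Con, MS5 against Con and MS5 against MS2. It was 522, 623 and 592 at the 75th percentile, 230, 401 and 370 with offset 0, 204 and 159 for the MS5 contrasts with array weights, 42 and 22 without MS5 replicates 9 and 14, and 38 for MS5 against MS2 with 2 groups. Leaving out 1 array moved it to between 7 (without Con replicate 18) and 38 (without MS2 replicate 5) in MS2 against Con, between 61 (without MS5 replicate 14) and 213 (without MS5 replicate 12) in MS5 against Con, and between 15 (without MS5 replicate 14) and 106 (without MS5 replicate 12) in MS5 against MS2. By the naming rule each gene was read by 1 probe on 5 arrays per group. The minus-strand probe without a gene symbol, 7097 bases from the Otx2 probe, did not pass, but it was much dimmer (7.27 in Con).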
